A study of Mus musculus with 6 samples.

Results

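Heat shock proteins and other chaperones were examined in the primary visual cortex (V1) of mice after closure of one eye, as 40 genes picked by symbol from a table of 52636 genes. All 40 symbols matched a row of the table, and all 40 passed the filter on low counts, as did 20473 genes in all. The mice were wild-type C57BL/6J at postnatal day 28, and every animal had its right eye sutured shut for 3 days. Contralateral V1 is the left hemisphere, opposite the sutured eye, and ipsilateral V1 is the right hemisphere of the same 3 mice, so the groups hold 3 contralateral and 3 ipsilateral libraries of total RNA and no undeprived animal. The ipsilateral side is therefore a within-animal comparison and also belongs to a deprived mouse.

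Chaperones bind unfolded or partly folded proteins and help them to fold, to be refolded or to be degraded. HSP70 proteins do so in cycles of ATP hydrolysis that J-domain proteins start and nucleotide exchange factors of the HSP110 family reset, and HSP90 acts later on a narrower set of clients. The transcription factor HSF1 switches on many cytosolic chaperone genes through heat shock elements in their promoters, and the unfolded protein response does the same for chaperones of the endoplasmic reticulum (ER) through ER stress elements. In neurons the constitutive HSP70, Hspa8, also strips clathrin from synaptic vesicles and, with Dnajc5, keeps SNARE proteins functional at the terminal.

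Gene reads numbered 17849253 to 32213500 per library, and the chaperone genes took 0.526% to 0.677% of them in contralateral and 0.619% to 0.729% in ipsilateral V1. Levels are given as CPM, that is, read counts scaled to a common library size with TMM factors. The 2 libraries of mouse 2 had the lowest depth (contralateral) and the highest depth (ipsilateral) of the study. The level of mt-Rnr1, a ribosomal RNA of mitochondria, divided the libraries into 3 low ones (14.5 to 35.9 CPM; contralateral 1, ipsilateral 1 and ipsilateral 3) and 3 high ones (2243 to 5801 CPM; contralateral 2, contralateral 3 and ipsilateral 2). Neuronal markers (Rbfox3, Snap25, Slc17a7, Gad1 and Gad2) summed to 2079 to 2789 CPM in contralateral and 2939 to 3254 CPM in ipsilateral V1. Neither choroid plexus marker passed the filter. No marker of V1 itself was examined, so the area rests on the label.

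The cytosolic HSP90 genes and Hspa8 stood highest and the stress-inducible HSP70 pair Hspa1a and Hspa1b lowest. Per kilobase of exon, and averaged over the 6 libraries, the cytosolic HSP90 gene Hsp90ab1 stood at 312 CPM per kilobase, Hspa8 at 211 and the second cytosolic HSP90 gene Hsp90aa1 at 174. The ER lectin chaperones Canx (92.8 CPM per kilobase) and Calr (83.6) came next, followed by the ER HSP90 Hsp90b1 (56.6) and Dnajc5 (50.4). At the other end were Bag3 (1.40 CPM per kilobase), an HSP70 co-chaperone of selective autophagy, and the pair Hspa1b (0.926) and Hspa1a (0.638). The transcription factor genes Hsf1 (11.7 CPM per kilobase) and Hsf2 (4.15) were expressed in all libraries.

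**Figure D1:**
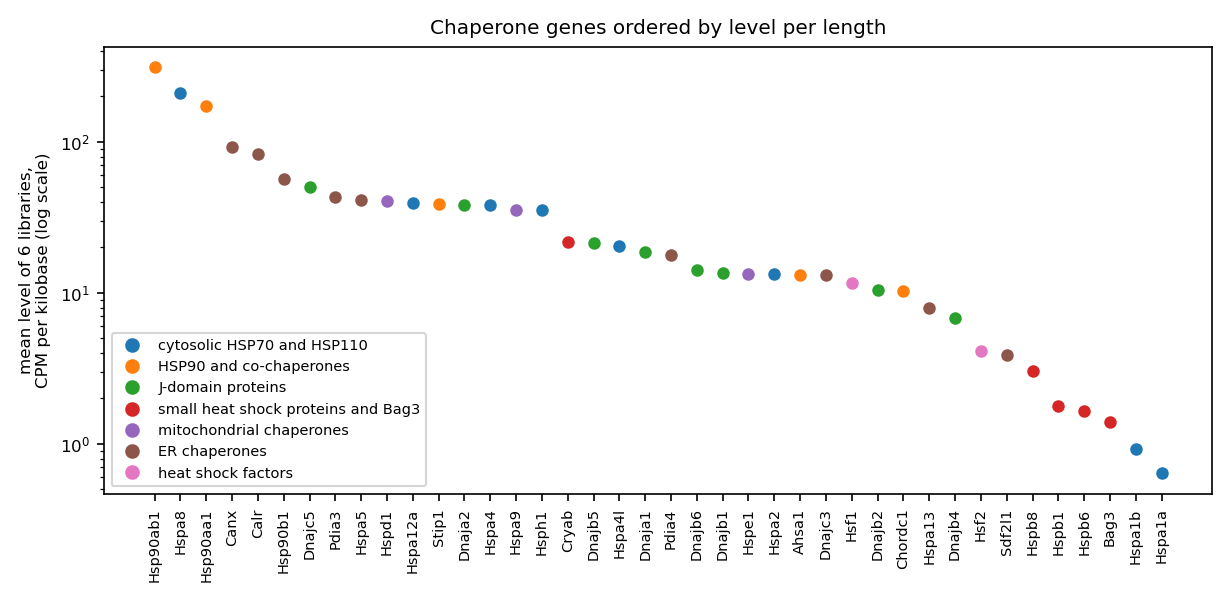
Mean level of each chaperone gene over the 6 libraries, in CPM per kilobase of exon on a log axis, ordered from high to low and coloured by role. The levels run from 312 for Hsp90ab1 to 0.638 for Hspa1a, with the small heat shock protein genes except Cryab near the low end.

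The comparison of the hemispheres asked whether deprivation of an eye was accompanied by a different chaperone level in the V1 it mainly drives. Most chaperone genes stood slightly lower in contralateral V1, and a single gene, the J-domain protein gene Dnajb5, was called, in the fit that pairs hemispheres by mouse. In edgeR's quasi-likelihood test without the mouse as a block, 0 of the 40 genes had an adjusted p under 0.05, beside 0.127% of all genes tested that passed as lower and 0% as higher. At an unadjusted p under 0.05, 2 of the 40 (Hspa8 and Dnajb5) were lower and 0 were higher, beside 2.87% and 3.28% of all genes. With the mouse as a block, 1 of the 40 fell and 0 rose, beside 0.698% and 0.195% of all genes. At an unadjusted p under 0.05 in that fit, 13 of the 40 were lower and 0 higher, beside 6.94% and 6.3% of all genes. All 13 had at least 20 CPM, and of the 7462 genes of that level 1117 were lower and 372 higher. The median log2 fold change, contralateral over ipsilateral, was -0.17 over the 40 genes and 0.03 over all genes tested. Of the 40, 32 lay below 0, beside 44.6% of all genes. Of the 32 with at least 20 CPM, 30 lay below 0, beside 62.8% of the genes of that level. Of the 8 under 20 CPM, 6 lay above 0. Of all 20473 genes 11334 lay above 0, and 2773 of these were among the 7462 genes of at least 20 CPM. Most genes under 20 CPM thus also lay above 0.

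These small differences were uneven between the animals. The median log2 CPM difference of the 40 genes was -0.07 in mouse 1, -0.46 in mouse 2 and -0.05 in mouse 3, and mouse 2 had the lowest difference for 34 of them. The contralateral side was lower for 28, 34 and 23 of the 40 genes in mice 1 to 3, beside 50.3%, 46.9% and 47.4% of all genes. In mouse 2, 29 of the 40 genes were lower by over 0.25 on the log2 scale, beside 24% of all genes, against 3 genes in mouse 1 (beside 17.4%) and 2 genes in mouse 3 (beside 17.5%). Of the 32 with at least 20 CPM, 27 were lower by that much in mouse 2, beside 34.4% of the genes of that level. Contralateral library 2 was the lowest of the 6 libraries for 26 of the 40 genes, and ipsilateral library 2 was the highest for 14. Among all genes of at least 20 CPM, contralateral library 2 was the lowest for 41.1% and the median in mouse 2 was -0.14. Without mouse 2, in the fit with the block, the median of the 40 genes was -0.06 and 23 of them lay below 0.

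Direction was shared by the mice for some of the genes. Of the 40, 18 were lower in contralateral V1 in all 3 mice, beside 17.3% of all genes, and 4 were higher in all 3 (Hspa1a, Hspb6, Hspb8 and Hsf1), beside 19.2%. Among genes of at least 20 CPM, which include 32 of the 40, 16 were lower in all 3 mice, beside 31.2%. The groups did not overlap for 2 of the 40 genes, Dnajb5 and Hspa9, both lower, beside 6.29% of all genes, and for 0 of the 40 in the other direction, beside 6.7%. The share of 5% is near the background of all genes. Among genes of at least 20 CPM, which include both, the share was 6.25%, below the 11.9% of all genes of that level.

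**Figure D2:**
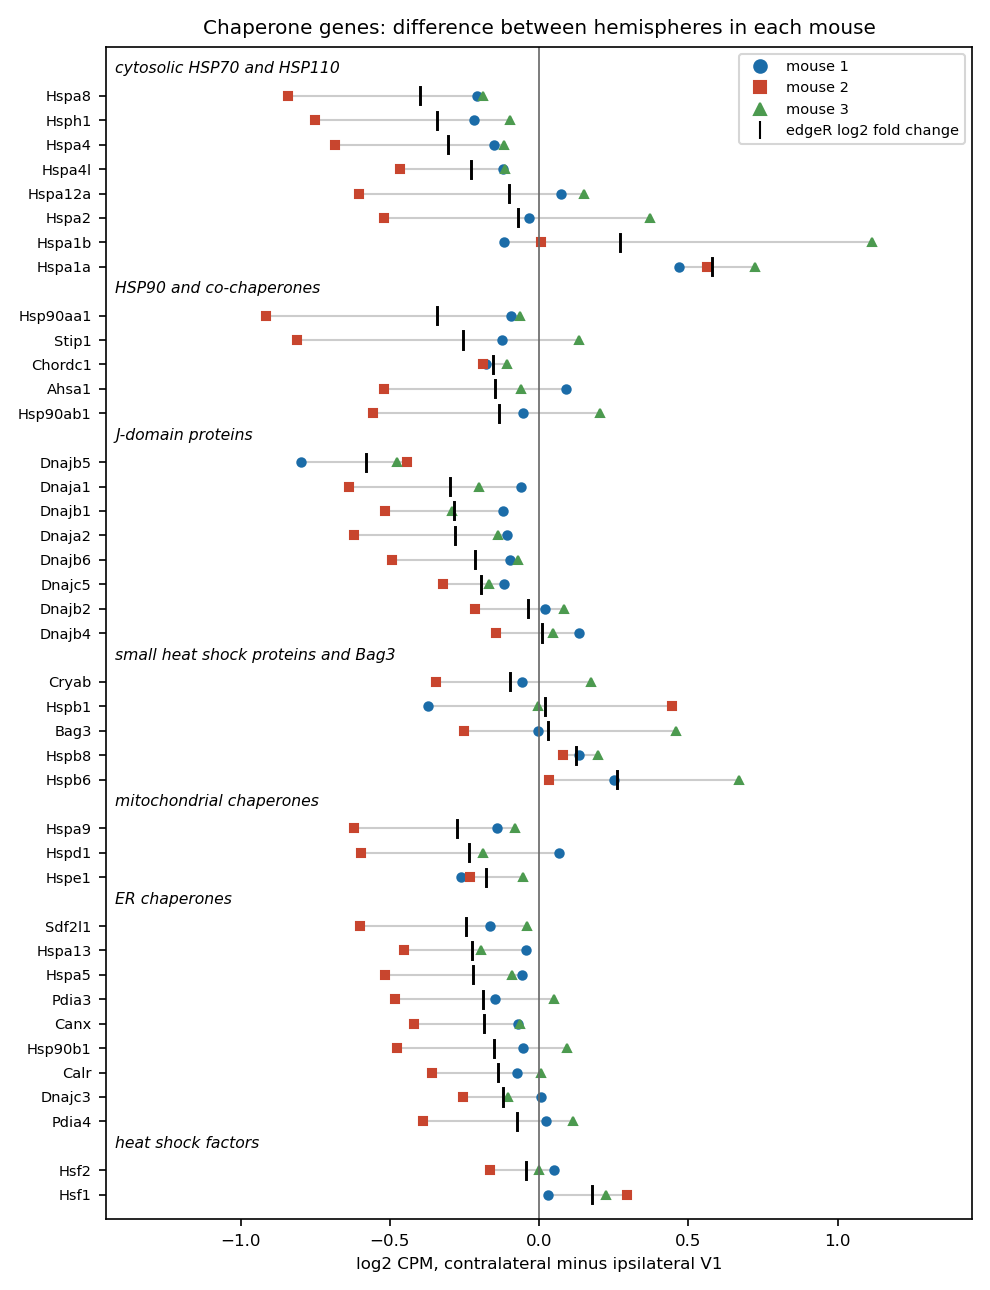
Difference in log2 CPM, contralateral minus ipsilateral V1, for each of the 40 genes in mouse 1 (circles), mouse 2 (squares) and mouse 3 (triangles), grouped by role, with the edgeR log2 fold change as a black bar. Mouse 2 lies farthest left for 34 of the 40 genes, and Dnajb5, which is lower in each mouse, has its largest difference in mouse 1.

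Markers of several cell types were also compared between the hemispheres, and of these only Gad1 and Gad2 passed, in the fit with the block. The 5 neuronal markers had median differences of -0.25, -0.56 and -0.16 in mice 1 to 3, and 3 of the 5 were lowest in mouse 2. Gad1 and Gad2, the GABA-synthesizing enzymes of inhibitory neurons, were lowest in mouse 1 and fell in the fit with the block (edgeR adjusted p = 0.00558 and 0.0301), while Rbfox3 lay above 0 (log2 fold change 0.14). All 5 oligodendrocyte markers lay below 0 (median -0.21), with median differences of -0.09, -0.19 and -0.54 in mice 1 to 3. Microglial markers summed to 207 to 283 CPM in contralateral and 189 to 248 CPM in ipsilateral V1, with all 5 above 0. Their median differences were -0.03, 0.42 and 0.09 in mice 1 to 3. Endothelial and mural markers also lay above 0 in 5 of 5, with median differences of -0.0048, 0.27 and 0.03 in mice 1 to 3. The astrocyte median was 0.0067. Meningeal and fibroblast markers (Col1a1, Dcn and Lum) lay below 0 in 3 of 3 (median -0.49). Their median differences were -0.91, -0.57 and 0.16 in mice 1 to 3, at sums of 12.3 to 22.1 CPM per library. The part of cell makeup and of depth in the chaperone differences was not tested, and in bulk tissue fewer cells of a type and less RNA per cell cannot be told apart. Within the low mt-Rnr1 libraries the median of the 40 genes was -0.13 with 28 below 0, and within the high ones it was -0.26 with 35 below 0, where the low set holds 1 contralateral library and the high set 1 ipsilateral library.

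Of the cytosolic HSP70 and HSP110 genes, 6 of 8 lay below 0 (median -0.16), none passed the test in either fit, and 4 were lower in each mouse. Hspa8 (ENSMUSG00000015656, chromosome 9, 40800984 to 40810087, plus strand, GRCm38) had 787, 625 and 939 CPM in contralateral libraries 1 to 3, against 909, 1119.7 and 1069 CPM in ipsilateral libraries 1 to 3. Its groups overlapped, since contralateral 3 exceeded ipsilateral 1, and its lowest value was that of contralateral 2. The means were 784 ± 157 and 1033 ± 110 CPM (SD, n = 3 each), with a log2 fold change of -0.40 (SE 0.17, edgeR adjusted p = 0.784, and 0.219 with the block). Of the 75-base stretches of Hspa8 transcripts, 32.8% also occur in transcripts of other genes, mostly processed copies, so its count depends on how such reads were treated.

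Hsph1, an HSP110 that acts as a nucleotide exchange factor for HSP70, had 214, 187 and 281 CPM in contralateral V1, against 249, 314 and 301 CPM in ipsilateral V1 (log2 fold change -0.34, SE 0.16, adjusted p = 0.804). Hspa4, another HSP110, had 195, 153 and 217 CPM in contralateral V1, against 217, 246 and 235 CPM in ipsilateral V1 (log2 fold change -0.30, SE 0.14, adjusted p = 0.804). In each of these genes contralateral 2 was the lowest library, and mouse 2 had the largest difference. Hspa4l, the third HSP110, had a log2 fold change of -0.23, Hspa12a, a distant HSP70 relative, of -0.10, and Hspa2, an HSP70 best known from the male germ line, of -0.07.

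The stress-inducible Hspa1a and Hspa1b pointed the other way at very low counts, as did most genes under 20 CPM. Hspa1a (chromosome 17, 34969190 to 34972156, minus strand) had 3.19, 1.87 and 1.71 CPM in contralateral V1, against 2.30, 1.26 and 1.03 CPM in ipsilateral V1. It was higher in contralateral V1 in each mouse, while the groups overlapped because mouse 1 was highest on both sides. The log2 fold change was 0.58 (SE 0.37, adjusted p = 0.832, and 0.395 with the block), from 25 to 64 reads per library. Hspa1b had 3.04, 2.41 and 3.05 CPM in contralateral V1, against 3.30, 2.40 and 1.39 CPM in ipsilateral V1, and its log2 fold change of 0.27 (SE 0.31, adjusted p = 0.900) rested on mouse 3, being -0.06 without that mouse in the fit with the block. The longest open reading frames of the pair are 99.4% identical and 54.2% of 75-base stretches of Hspa1a recur in another gene, so reads cannot be divided between them with certainty.

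Promoters of RefSeq (build GRCm38.p6) were found for 32 of the 40 genes. The 250 bases before each start, 44 windows in all, were searched on both strands. A gene with several starts counted as a carrier if any window matched, and Dnaja1, Dnajb4, Hspb6 and Hspd1 also had windows without a match. For 33 of the 44 windows the bases after the start occurred in a transcript of the gene. No promoter was found, and none searched, for Hspa8, Hspa9, Hspa13, Hsp90aa1, Hsp90ab1, Dnajc5, Cryab and Hsf1. A heat shock element of 3 units (GAA, TTC and GAA, each 2 bases apart) was in 3 of the 32 (Dnajb6, Hspd1 and Hspe1), beside 0.514% of all genes with a promoter in the table. The shorter element of 2 units, TTCNNGAA or GAANNTTC, which every 3-unit match also contains, was in 10 of the 32, beside 14.5%. The promoters of Hspa1a and Hspa1b differ at 3 of 250 positions, and the 2-unit element stands 104 bases before the start in both. These elements are shown, read 5′ to 3′ on the strand given, with the fixed letters of the motif in capitals, as examples from carriers on both sides of 0. Of the 10 carriers, Hspa1a, Hspa1b, Hspb6, Hspb1 and Dnajb4 lay above 0, Hspb1 and Dnajb4 below it with RLE size factors, and Dnaja1, Dnajb6, Hspd1, Hspe1 and Hsph1 lay below 0.
Hspa1a (chr17:34972241-34972272, minus strand): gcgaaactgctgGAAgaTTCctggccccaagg
Hspa1b (chr17:34959323-34959354, minus strand): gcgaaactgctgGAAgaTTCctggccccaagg
Hspb6 (chr7:30553169-30553200, plus strand): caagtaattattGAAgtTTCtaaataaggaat
Hsph1 (chr5:149636350-149636381, minus strand): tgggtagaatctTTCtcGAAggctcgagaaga
Dnaja1 (chr4:40722332-40722363, plus strand): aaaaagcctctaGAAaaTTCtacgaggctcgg
Dnajb6 (chr5:29735840-29735876, plus strand): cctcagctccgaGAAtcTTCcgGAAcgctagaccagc

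All 5 genes of HSP90 and its co-chaperones lay below 0 (median -0.15), and none passed in either fit. Without mouse 2, in the fit with the block, 2 of the 5 lay below 0. Hsp90ab1, the most abundant member, had 905, 760.1 and 1012 CPM in contralateral V1, against 939, 1118 and 878 CPM in ipsilateral V1. The groups overlapped and mouse 3 was higher on the contralateral side (log2 fold change -0.13, SE 0.16, adjusted p = 0.904). Hsp90aa1, the more inducible isoform, averaged 603 ± 156 CPM in contralateral and 765 ± 138 CPM in ipsilateral V1 (SD, n = 3 each), with differences of -0.09, -0.91 and -0.06 in mice 1 to 3. Of its 75-base transcript stretches, 42.8% recur in other genes. Stip1, which bridges HSP70 and HSP90, had a log2 fold change of -0.26, Chordc1, an HSP90 co-chaperone, of -0.15, and Ahsa1, which stimulates the HSP90 ATPase, of -0.15.

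Among the J-domain proteins, 7 of 8 genes lay below 0 (median -0.25) and 6 were lower in all 3 mice. Dnajb5 (ENSMUSG00000036052, chromosome 4, 42949814 to 42959425, plus strand), a class B J-domain protein reported in mouse heart to bind the histone deacetylase HDAC4, had 101, 100.3 and 105 CPM in contralateral V1, against 176, 136 and 146 CPM in ipsilateral V1. The contralateral values lay close together and below every ipsilateral value. The means were 102 ± 2.57 and 153 ± 20.7 CPM (SD, n = 3 each), a 1.50-fold lower level. The log2 fold change was -0.58 (SE 0.13, adjusted p = 0.205) without the mouse as a block and -0.57 (SE 0.10, adjusted p = 0.00670) with it, both in edgeR, and DESeq2 without the block gave an adjusted p of 0.00800. Differences in mice 1 to 3 were -0.80, -0.44 and -0.48, so mouse 2 was not the largest here. With the block, Dnajb5 also passed without mouse 1 (adjusted p = 0.0470), mouse 2 (0.00324) or mouse 3 (0.00280). Over all alternatives its adjusted p ranged from 0.00280 to 1.00 and its log2 fold change from -0.68 to -0.41.

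No 75-base stretch of Dnajb5 transcripts recurred in another gene, and no annotated gene overlapped it. Its nearest kin, Dnajb1 and Dnajb4, had log2 fold changes of -0.29 and 0.0092. Their longest open reading frames have 1023 and 1014 bases, against 1389 for Dnajb5. Identical bases came to 48.9% and 48.2% of the longer Dnajb5 frame, so the unequal lengths lower these shares. For comparison, the 6 immediate early genes Fos, Egr1, Egr2, Arc, Nr4a1 and Junb, which neurons induce on activity, all fell in both fits, with median differences of -2.14, -1.62 and -1.35 in mice 1 to 3. The 250 bases before the first RefSeq start of Dnajb5 (chr4:42949617-42949866, plus strand) are shown because it is the gene that was called. They held none of the motifs searched, including the cAMP response element TGACGTCA, which was in 0 of the 32 promoters, beside 1.77% of all genes.
Dnajb5: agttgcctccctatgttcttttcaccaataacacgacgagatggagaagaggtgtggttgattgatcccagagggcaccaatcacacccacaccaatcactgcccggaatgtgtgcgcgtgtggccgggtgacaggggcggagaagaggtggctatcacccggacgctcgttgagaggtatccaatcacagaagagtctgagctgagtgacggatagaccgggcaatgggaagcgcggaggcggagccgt

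**Figure D3:**
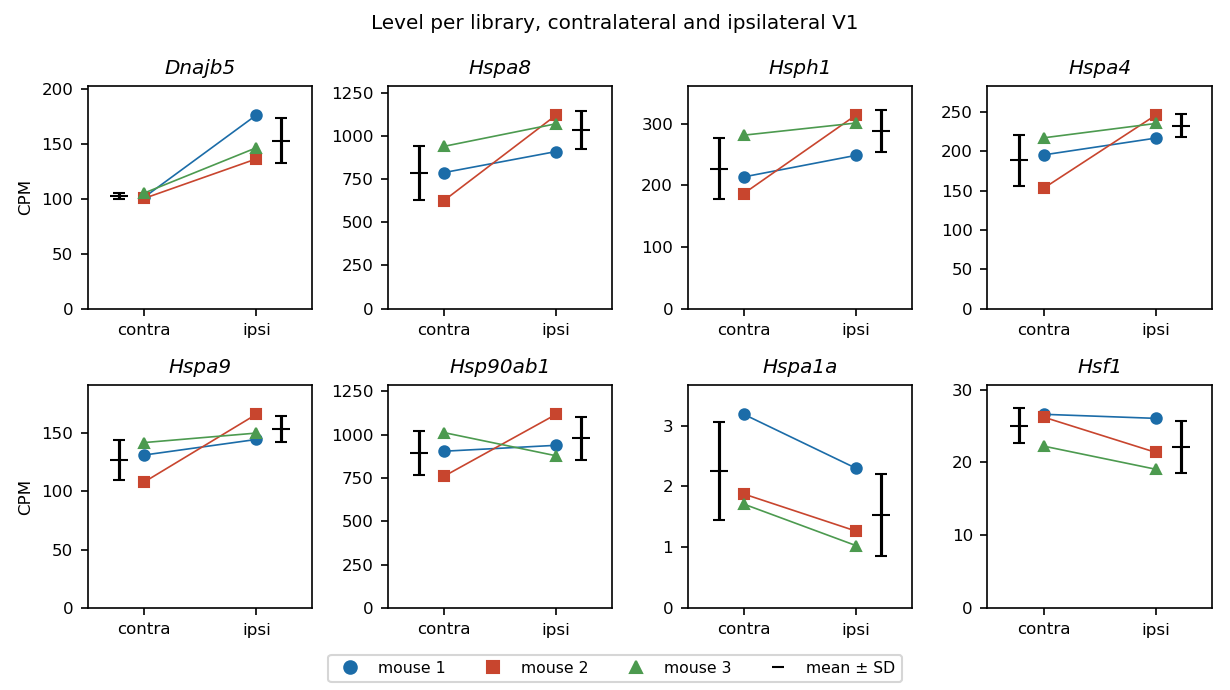
CPM of 8 chaperone genes in each library, contralateral V1 at left and ipsilateral V1 at right, with lines joining the hemispheres of a mouse and black bars for the mean ± SD of 3 libraries. In Dnajb5 every contralateral value (100.3 to 105 CPM) lies below every ipsilateral value (136 to 176 CPM), in Hspa8, Hsph1 and Hspa4 the steepest line is that of mouse 2, and in Hspa1a all 3 lines run down to the ipsilateral side.

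The other J-domain genes were closer to the rest of the family. Dnajc5, the cysteine string protein of synaptic vesicles, had 362, 282 and 338 CPM in contralateral V1, against 392, 352 and 379 CPM in ipsilateral V1 (log2 fold change -0.20, SE 0.13, adjusted p = 0.844). It was lower in each mouse, but contralateral 1 exceeded ipsilateral 2. Dnaja1 and Dnaja2, the main class A partners of cytosolic HSP70, had log2 fold changes of -0.30 and -0.28 and were lower in each mouse, as were Dnajb1, the heat-inducible HSP40 (-0.29), and Dnajb6, which suppresses polyglutamine aggregation (-0.21). Dnajb2, a neuronal J-domain protein, lay at -0.04. Dnaja1 overlaps Smu1 on the other strand, which held 5026 reads against 22538 for Dnaja1, and counts of overlapping genes are uncertain without the strand setting.

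Of the small heat shock proteins, which hold unfolded proteins without ATP, together with Bag3, 4 of 5 genes lay above 0. Of these, Hspb1 and Bag3 lay below it in DESeq2. The median of the 5 was 0.03, beside 0.03 for all genes tested, and none passed in either fit. Apart from Cryab their levels were low, and most genes under 20 CPM lay above 0. Cryab, the alpha B-crystallin of glia and lens, had 30.1, 32.0 and 30.9 CPM in contralateral V1, against 31.3, 40.6 and 27.4 CPM in ipsilateral V1 (log2 fold change -0.10, SE 0.15, adjusted p = 0.935). Ipsilateral 2 and ipsilateral 3 lay on either side of all contralateral values. Hspb6 had 4.28, 4.61 and 3.60 CPM in contralateral V1, against 3.60, 4.50 and 2.26 CPM in ipsilateral V1 (log2 fold change 0.26, SE 0.27, adjusted p = 0.890), and it overlaps Lin37 on the other strand, which held 1305 reads against 516 for Hspb6. Hspb6 and Hspb8 were higher in contralateral V1 in each mouse. Hspb8, the partner of Bag3, had a log2 fold change of 0.13, Bag3 of 0.03 and Hspb1 of 0.02, where Hspb1 was lower in mouse 1 (-0.37) and higher in mouse 2 (0.44). Of the 75-base transcript stretches of Hspb1, 46.4% recur in another gene.

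All 3 mitochondrial chaperone genes lay below 0 (median -0.24), without passing in either fit. Hspa9, the mitochondrial HSP70, had 131, 108 and 142 CPM in contralateral V1, against 144, 166 and 149.8 CPM in ipsilateral V1. The groups did not overlap, by a gap between contralateral 3 and ipsilateral 1 that was small beside the spread within each side (log2 fold change -0.27, SE 0.13, adjusted p = 0.806, and 0.270 with the block). Hspd1 and Hspe1, the chaperonin HSP60 and its lid HSP10, had log2 fold changes of -0.24 and -0.18. Of the 75-base transcript stretches of Hspd1 and Hspe1, 29.6% and 11.9% recur in other genes. These neighbours lie head to head on chromosome 1 and overlap. The Hspe1 window and 1 of the 2 Hspd1 windows hold the same run of heat shock units, shown on both strands for that reason. That Hspd1 window (chr1:55087933-55088182) lies within the annotated gene, and the other, before the annotated start, held none of the motifs.
Hspe1 (chr1:55088052-55088088, plus strand): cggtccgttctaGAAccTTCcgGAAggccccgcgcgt
Hspd1 (chr1:55088047-55088083, minus strand): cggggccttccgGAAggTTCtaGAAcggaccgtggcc

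All 9 ER chaperone genes lay below 0 (median -0.19), within a narrow range of -0.25 to -0.07, and none passed in either fit. Canx, a membrane lectin chaperone and the most abundant of them, had 403, 376 and 444 CPM in contralateral V1, against 424, 503 and 464 CPM in ipsilateral V1 (log2 fold change -0.19, SE 0.13, adjusted p = 0.846). It was lower in each mouse, with contralateral 3 above ipsilateral 1. Hspa5, the ER HSP70 known as BiP, had a log2 fold change of -0.22, Hsp90b1 of -0.15, and Calr, the soluble partner of Canx, of -0.14. Pdia3 and Pdia4, which form disulphide bonds, lay at -0.19 and -0.07, Dnajc3, a co-chaperone of BiP, at -0.12, Hspa13 at -0.22, and Sdf2l1, a BiP cofactor with few reads, at -0.25. In mouse 2 all 9 had their lowest difference of the 3 mice, and 7 of the 9 lay below 0 without mouse 2, in the fit with the block.

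The ER stress element (CCAAT and CCACG, 9 bases apart) was in 5 of the 32 promoters, all of them ER chaperones, beside 0.130% of all genes with a promoter in the table. The 6 matches are shown in the orientation of the motif, with CCAAT and CCACG in capitals, because these 5 genes share the element. Their log2 fold changes lay between -0.22 and -0.12. Those of the ER chaperone genes searched without a match, Sdf2l1, Pdia3 and Pdia4, were -0.25, -0.19 and -0.07, so the carriers did not stand apart. A match is a description of letters, and nothing was measured of binding.
Hspa5 (chr2:34772013-34772055, plus strand): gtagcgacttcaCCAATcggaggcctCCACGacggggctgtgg
Hsp90b1, distal (chr10:86705626-86705668, minus strand): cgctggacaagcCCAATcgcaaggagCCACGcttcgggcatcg
Hsp90b1, proximal (chr10:86705521-86705563, plus strand): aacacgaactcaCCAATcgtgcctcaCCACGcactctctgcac
Calr (chr8:84847063-84847105, plus strand): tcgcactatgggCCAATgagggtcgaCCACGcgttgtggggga
Canx (chr11:50325788-50325830, minus strand): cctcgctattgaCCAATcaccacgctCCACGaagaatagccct
Dnajc3 (chr14:118937815-118937857, plus strand): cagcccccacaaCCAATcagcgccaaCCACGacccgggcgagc

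Neither heat shock factor gene passed in either fit. Hsf1, the master activator of the heat shock response, had 26.6, 26.2 and 22.3 CPM in contralateral V1, against 26.1, 21.4 and 19.1 CPM in ipsilateral V1. It was slightly higher in each mouse, with overlapping groups (log2 fold change 0.18, SE 0.15, adjusted p = 0.871). Hsf2, a relative active in development, had 35.9, 38.5 and 43.6 CPM in contralateral V1, against 34.7, 43.2 and 43.6 CPM in ipsilateral V1 (log2 fold change -0.04, SE 0.14, adjusted p = 0.969).

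Other genes of protein folding, which are not among the 40, were counted in the same fits, and none of them passed in either. Among all genes tested 44.6% lay below 0 (median 0.03), and among genes of at least 20 CPM 62.8% (median -0.05). Of 14 genes of the cytosolic chaperonin TRiC and its partner prefoldin, 12 lay below 0 (median -0.21), led by the TRiC subunit gene Cct8 (-0.32, adjusted p = 0.803), and the medians in mice 1 to 3 were -0.07, -0.46 and -0.13. Of 21 cytosolic co-chaperone genes, 17 lay below 0 (median -0.09), led by the HSP90 co-chaperone gene Ptges3 (-0.33, adjusted p = 0.776). Of 20 genes of the unfolded protein response and ER folding 19 were tested and 12 lay below 0 (median -0.04), led by Atf4, its translationally induced transcription factor. Atf4 had 42.1, 36.0 and 42.2 CPM in contralateral V1, against 60.2, 48.7 and 49.6 CPM in ipsilateral V1, without overlap (log2 fold change -0.40, SE 0.13, adjusted p = 0.676, and 0.0737 with the block). Xbp1, Bag5, Dnajc6, Cct4, Cct5 and Cct7 of these lists were also lower without overlap, beside 11.9% of all genes of at least 20 CPM. Of 9 genes of mitochondrial proteostasis, 7 lay below 0 (median -0.03), and the smallest p was that of the iron-sulphur co-chaperone gene Hscb (0.36, adjusted p = 0.870).

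**Figure D4:**
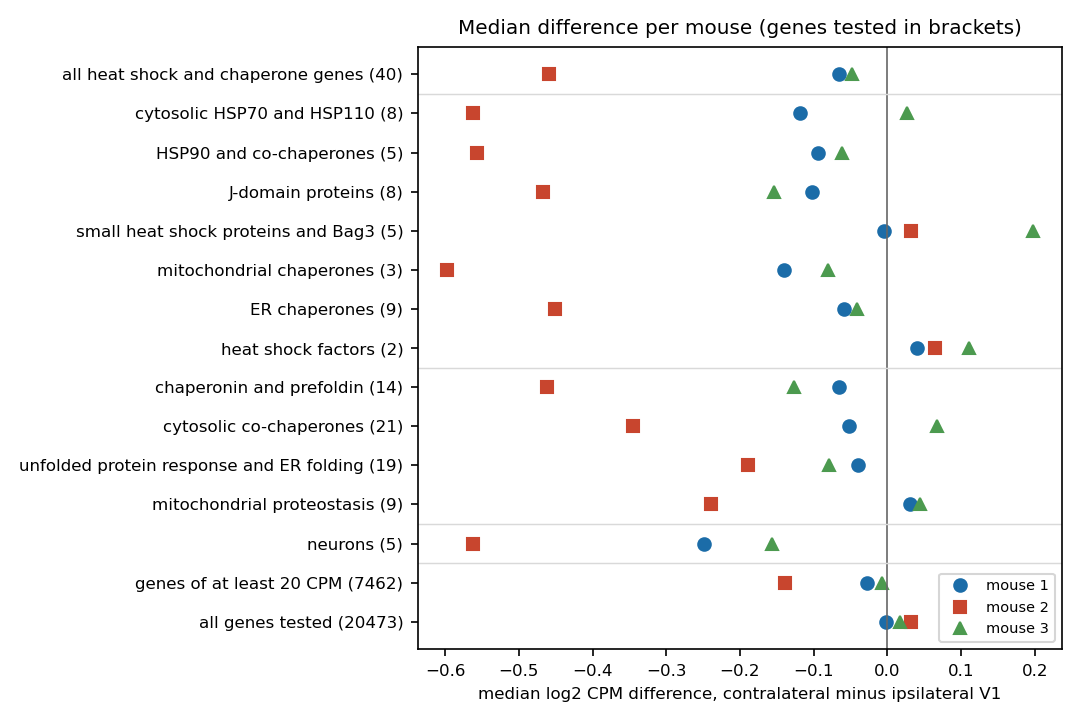
Median log2 CPM difference, contralateral minus ipsilateral V1, in each mouse for the chaperone genes, their role groups, other protein folding lists, neuronal markers and background genes, with the number of genes tested in brackets. The 40 genes lie at -0.07, -0.46 and -0.05 in mice 1 to 3, and all genes tested lie between -0.0024 and 0.03.

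Circular RNAs, counted by reads across back-splice junctions, came from 3 of the 40 genes, with 172 such reads over 5 of the 1488 circRNAs. None of the 5 passed in edgeR (adjusted p = 0.999 for each), beside 0% of all 1468 circRNAs tested, and 0 of the 5 had an unadjusted p under 0.05, as against 52 of all circRNAs. The circle of Stip1 (chromosome 19, 7026292 to 7032649, minus strand) had 7, 19 and 8 reads in contralateral V1, against 3, 10 and 14 reads in ipsilateral V1. A short circle of 92 bases from Hsp90aa1 had 21 reads on each side, and each of the 3 circles of Canx had 7 to 15 reads over the contralateral and 11 to 14 reads over the ipsilateral libraries. Differences of the size seen in the host genes were not detectable at this depth.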

How the data were processed

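Total RNA of micro-dissected V1 was sequenced after library preparation with the SMARTer kit for stranded total RNA, per the labels' protocols. The authors deposited raw read counts per Ensembl gene in the layout of featureCounts, and whole-number counts of back-splice reads for each circRNA, per the file headers, which also give an exonic length for each gene. GRCm38, HISAT2, limma, DESeq2 and featureCounts appear in the submitters' processing notes, without roles. The strand setting, the annotation release and the circRNA caller were not given in the sources used here.

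Symbols came from GENCODE M21 (GRCm38), which holds 52403 of the 52636 identifiers, and promoters from RefSeq GRCm38.p6. Genes were compared with edgeR 4.0.16 (R 4.3.3; quasi-likelihood test, TMM, filterByExpr keeping counts from 10 and totals from 15, Benjamini-Hochberg over 20473 genes, threshold 0.05), and each standard error is the log2 fold change, unsigned, divided by the root of its F value. CircRNAs were tested alike (at least 2 reads in 3 libraries). Per-mouse differences used log2 CPM with a prior count of 0.5. Scripts were tested on simulated data. DESeq2 1.42.0 and other alternatives are given below.

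The labels give both hemispheres of a number the same mouse. Deviations from group means correlated within mice 1 to 3 at 0.406, 0.0737 and 0.158, beside at most -0.176, 0.171 and 0.171 with another mouse. The genes, role groups and lists were chosen with earlier results of these data known, so counts over them are descriptions. Values in each library were given for 14 genes: those that passed in either fit, the 4 with the smallest p in each direction, and the most abundant of each role. The p-values of DESeq2 and of edgeR without the block treat the 6 libraries as independent and rest on the spread between libraries of a side. Those of the fit with the block rest on how the hemisphere difference varied between 3 mice. Reads without molecular identifiers do not tell amplified copies from separate molecules, so small read numbers can vary by more than counting error.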

Additional observations from a re-analysis of the deposited data

How the results depend on the processing

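Of the 40 genes, 0 passed with all libraries, and 1, Dnajb5, passed with the replicate block, with DESeq2, with no filter on low counts, and with the block without mouse 1, 2 or 3 (1 in each), while leaving out single libraries gave 0 to 0. The count over all genes was 26, and 183 with the replicate block, 95 with DESeq2, 109 with no filter, and 250, 174 and 269 with the block without mouse 1, 2 and 3. It ranged from 0 to 35 without single libraries, with 0 (833 at an unadjusted p under 0.05) without contralateral library 2, 17 without contralateral library 3 and 16 without ipsilateral library 2. The median of the 40 genes kept its sign in all 16 alternatives, from -0.26 to -0.06, and was -0.24 to -0.10 without single libraries. The count of circRNAs was 0 with the replicate block and 0 to 0 without single libraries. Of the 40 genes, 22 kept their sign in all alternatives and 18 turned in at least 1, and the cause was not tested. With the block without mouse 2, values were 0.17 for Hspa2, 0.11 for Hspa12a, 0.076 for Hsp90ab1, 0.0069 for Stip1, 0.014 for Ahsa1, 0.050 for Dnajb2, -0.19 for Hspb1, 0.059 for Cryab, 0.020 for Hsp90b1, 0.070 for Pdia4 and 0.023 for Hsf2. With the block without mouse 3 they were -0.058 for Hspa1b, -0.0087 for Dnajb4 and -0.13 for Bag3, and without mouse 1 -0.086 for Dnajb4. Within the low mt-Rnr1 libraries they were 0.15 for Hspa2, 0.079 for Hspa12a, 0.27 for Dnajb2, -0.092 for Dnajb4, -0.25 for Hspb1, 0.025 for Cryab, 0.00040 for Calr and 0.077 for Sdf2l1. Within the high ones they were -0.14 for Hspb6, -0.17 for Hspb8 and -0.30 for Bag3, and with the set as a term 0.024 for Dnajb2 and -0.035 for Dnajb4. DESeq2 gave -0.021 for Dnajb4, -0.014 for Hspb1 and -0.00051 for Bag3, RLE size factors gave -0.011 for Dnajb4 and -0.0015 for Hspb1, and no filter gave -0.0029 for Dnajb4. Without single libraries, values ranged from -0.22 to 0.041 for Hspa2, -0.21 to 0.077 for Hspa12a, -0.0022 to 0.53 for Hspa1b, -0.23 to 0.070 for Dnajb2, -0.14 to 0.087 for Dnajb4, -0.12 to 0.12 for Hspb1, -0.048 to 0.28 for Hspb8, -0.23 to 0.076 for Cryab, -0.20 to 0.16 for Bag3, -0.34 to 0.0015 for Hsp90b1, -0.22 to 0.035 for Pdia4 and -0.18 to 0.015 for Hsf2. Depth limits Hspa1a, Hspa1b, Hspb1 and the circRNAs, which rest on few reads.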
